A study of Mus musculus with 6 samples.

Results

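The neutrophil granule and alarmin genes described here are S100a8, S100a9, Ngp, Camp, Ltf, Retnlg, Mpo, Elane, Cxcr2 and Lcn2, chosen by name. A gene counted as measured where the array's annotation gave a probe set (a group of short oligonucleotides that report on 1 transcript) its symbol alone. That held for 9 of the 10, with 1 probe set each, out of 18193 genes measured in the series. Retnlg had no such probe set and has no array values here, and only its upstream sequence was searched. Of the 9 genes, 8 were bright enough to enter the test across all probe sets, and Cxcr2 was below that filter.

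The 6 samples were total RNA from choroid plexus epithelium of whole mouse brain, 1 single-colour array each. By their descriptions, 3 came from B10.PL wild type (WT) mice and 3 from B10.PL RAG-/- mice. The RAG1 and RAG2 proteins rearrange antigen receptor genes, and mice that lack either have no mature T or B cells but still make neutrophils. The labels do not state which of them was disrupted, the age or sex of the animals, whether animals were pooled, or whether the samples came from separate animals, so a p-value here reflects only how far these samples scatter, which could be technical. A code in the titles joins 1 array of each genotype, which gives 3 pairs. For pair 1 the descriptions say that the samples were reversed and contradict the genotypes in the titles. Arrays are named below by description, so that WT replicate 1 is titled RAG and RAG-/- replicate 1 is titled as wild type, and each comparison of genotypes is given by description and by title.

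Median deposited intensity lay between 78.0 and 97.3 per array. Ttr, the carrier protein that marks this epithelium, was at 14.69 to 14.83 on the log2 scale on the 6 arrays, and the 13 measured epithelium markers of 15 listed had a median brightness at the 99.3 percentile. Of the T and NK cell markers, 10 of the 12 measured were below the filter on dim signal, and so were 9 of 18 B cell markers. The summed level of the epithelium markers was 108809 in RAG-/- replicate 2 and 182958 to 219415 on the other arrays, so that array held less epithelial signal.

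Neutrophils fill their granules in stages as they mature in bone marrow. Genes for azurophil (primary) granule proteins such as myeloperoxidase and neutrophil elastase are transcribed at the promyelocyte stage, those of specific (secondary) granules later, and the receptors and cytosolic proteins of the circulating cell last. Messages of Mpo and Elane are therefore known from immature cells, while S100a8, S100a9 and Cxcr2 remain high in mature ones. The choroid plexus has fenestrated vessels and is known as a site where leukocytes meet the border of the brain.

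The 250 bases before the start are printed for S100a8, S100a9, Ngp, Camp, Ltf and Lcn2, which are all 6 of the alarmin and specific granule genes with values past the filter. They come from RefSeq for assembly GRCm38.p6, where all 10 genes matched by symbol, and are written along the gene's strand. Capitals mark matches to TTNNGCAA, a short form of the site of C/EBP factors, which drive granule gene transcription, on either strand.
S100a8, chr3:90668821-90669070, plus strand: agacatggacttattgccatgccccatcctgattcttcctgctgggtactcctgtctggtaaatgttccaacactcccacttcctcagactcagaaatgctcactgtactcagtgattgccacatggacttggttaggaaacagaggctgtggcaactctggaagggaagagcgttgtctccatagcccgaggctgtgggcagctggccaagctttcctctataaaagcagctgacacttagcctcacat
S100a9, chr3:90695722-90695971, minus strand: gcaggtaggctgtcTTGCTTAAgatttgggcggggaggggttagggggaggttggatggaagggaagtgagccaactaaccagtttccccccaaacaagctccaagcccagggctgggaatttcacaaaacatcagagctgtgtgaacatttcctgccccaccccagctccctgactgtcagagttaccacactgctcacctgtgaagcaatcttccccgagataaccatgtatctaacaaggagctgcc
Ngp, chr9:110419558-110419807, plus strand: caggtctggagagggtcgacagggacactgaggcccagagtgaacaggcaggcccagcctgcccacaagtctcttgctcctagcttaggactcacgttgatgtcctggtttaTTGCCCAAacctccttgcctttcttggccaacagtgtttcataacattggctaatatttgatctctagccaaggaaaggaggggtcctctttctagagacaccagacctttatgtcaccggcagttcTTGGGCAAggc
Camp, chr9:109849457-109849706, minus strand: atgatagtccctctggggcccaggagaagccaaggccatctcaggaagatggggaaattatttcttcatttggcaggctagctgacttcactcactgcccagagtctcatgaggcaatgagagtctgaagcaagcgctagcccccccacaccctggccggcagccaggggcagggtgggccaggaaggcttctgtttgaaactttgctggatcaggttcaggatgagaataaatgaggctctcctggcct
Ltf, chr9:111019042-111019291, plus strand: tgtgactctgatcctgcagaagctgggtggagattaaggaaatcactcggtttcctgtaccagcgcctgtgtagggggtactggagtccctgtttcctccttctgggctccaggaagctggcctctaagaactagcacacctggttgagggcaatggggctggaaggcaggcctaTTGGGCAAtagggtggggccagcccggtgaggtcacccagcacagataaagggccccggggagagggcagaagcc
Lcn2, chr2:32387740-32387989, minus strand: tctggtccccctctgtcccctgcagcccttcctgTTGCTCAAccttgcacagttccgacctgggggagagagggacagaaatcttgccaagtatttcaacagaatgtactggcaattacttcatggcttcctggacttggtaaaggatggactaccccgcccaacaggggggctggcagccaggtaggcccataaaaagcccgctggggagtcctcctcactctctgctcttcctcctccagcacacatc
Matches began 236 bases before the start of S100a9, 138 and 11 bases before that of Ngp, 75 before that of Ltf and 216 before that of Lcn2, and S100a8 and Camp had none in this window. Over all 10 genes, 5 windows held TTNNGCAA, those of S100a9, Ngp, Ltf, Lcn2 and of Retnlg, which has no array values here. The same string was in 9.57% of 32817 windows of this length before annotated gene starts. The string GAGGAA, a core of PU.1 sites, was in 6 of 10 windows and in 23.3% of all. A form of the NF-kB site (GGGA, any base, T, any 2 bases, CC) was in 0 of 10 and in 3.44% of all, and TATAAA in 1 of 10 and 12.4%. Both strands were searched, and no match to 1 of these motifs overlapped a match to another in the members' windows. Such matches describe letters only.

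S100a8 and S100a9 encode the subunits of calprotectin, an alarmin that fills the neutrophil cytosol, and are next to each other on chromosome 3. The deposited intensity of S100a8 was 9042 in WT replicate 1 and 1777 in RAG-/- replicate 1, 183 and 91.9 in WT and RAG-/- replicates 2, and 3831 and 2249 in WT and RAG-/- replicates 3. Both arrays of pair 2 were lowest, and the highest array exceeded the lowest 98.3-fold. S100a9 read 6108 and 1111 in pair 1, 173 and 95.2 in pair 2, and 1353 and 996 in pair 3, with the WT array first in each pair. The arrays kept the order of S100a8 except that RAG-/- replicate 1 passed RAG-/- replicate 3, and its highest array was 64.2-fold above its lowest. In both genes pair 1 and pair 3 overlapped.

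Among the specific granule genes, Ngp, which encodes neutrophilic granule protein, had intensities of 5816 and 1657 in pair 1, 322 and 185 in pair 2, and 2208 and 2009 in pair 3, WT first. Camp, which encodes the antimicrobial cathelicidin, had 1947 and 483 in pair 1, 104 and 11.3 in pair 2, and 545 and 352 in pair 3. The 172-fold span of Camp ends at a dim value, which lay at the 12.3 percentile of its array, so its size depends on the background estimate. With the pseudocount of 16 used for testing, the span was 78.4-fold. Ltf, which encodes iron-binding lactoferrin, had 1191 and 356 in pair 1, 120 and 140 in pair 2, and 423 and 437 in pair 3, a span of 9.96-fold. For all of these genes pair 2 held both of the lowest arrays and WT replicate 1 was highest.

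Lcn2 encodes lipocalin-2, which withholds bacterial siderophores from microbes. It is stored in specific granules and is also induced in epithelium, endothelium and astrocytes during inflammation. Its intensity was 1060 and 375 in pair 1, 57.6 and 9.23 in pair 2, and 94.6 and 169 in pair 3, WT first. The pairs did not overlap, and in pair 3 the RAG-/- array was the higher, unlike S100a8, S100a9, Ngp and Camp.

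Cxcr2 encodes the chemokine receptor that draws neutrophils out of marrow and into tissue. It was dim, with 68.0 and 51.8 in pair 1, 10.1 and 20.3 in pair 2, and 32.0 and 60.5 in pair 3, between the 13.6 and 45.6 percentiles of the arrays. Its pair 2 arrays were again the lowest.

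The azurophil granule genes differed from each other. Mpo, which encodes the enzyme that makes hypochlorous acid, had 597 and 194 in pair 1, 55.4 and 70.9 in pair 2, and 151 and 122 in pair 3, WT first. Its 3 pairs did not overlap, with pair 2 lowest and pair 1 highest. Elane, which encodes neutrophil elastase, had 78.9 and 30.3, 66.6 and 68.5, and 80.1 and 63.4 in pairs 1, 2 and 3. Elane lay at or below the 48.6 percentile on every array, its span was 2.64-fold, and its lowest array was RAG-/- replicate 1, not one of pair 2. Its highest array was WT replicate 3 as deposited and WT replicate 1, at 6.61 against 6.53, on the normalized log2 scale.

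**Figure D1:**
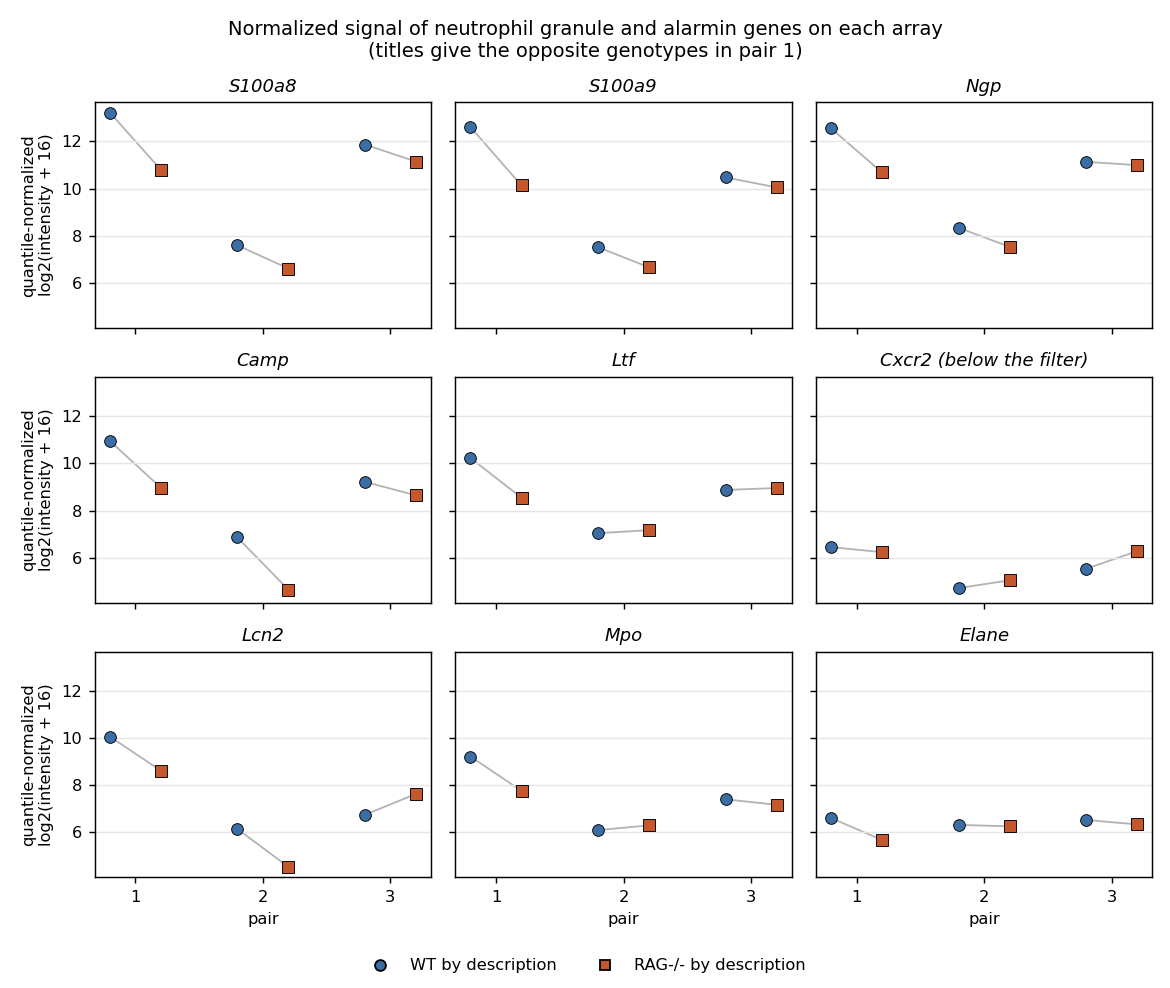
Each panel plots 1 gene: the vertical axis is the quantile-normalized log2(intensity + 16), the horizontal axis the pair, with WT arrays as circles and RAG-/- arrays as squares by description, joined within a pair. Pair 2 is lowest in every panel but that of Elane, and WT replicate 1 is highest in all 9.

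The pair carried most of the variation. On the log2 scale the difference between pairs made up between 80.3% and 88.7% of the variance over the 6 arrays for S100a8, S100a9, Ngp, Camp, Ltf, Lcn2, Mpo and Cxcr2, and 15.3% for Elane. The median of the 8 genes past the filter was 83.7%, against 63.1% over all 27022 probe sets tested. Genotype by description made up a median of 8.02% in the 8 genes and 6.05% in all probe sets, and genotype by title 0.907% and 7.65%. Both pair 2 arrays lay below the other 4 for 7 of the 8 genes (15.2% of all probe sets tested), WT replicate 1 was the highest array for 8 of 8 (10.1% of all), RAG-/- replicate 2 the lowest for 5 of 8 (29% of all), and the 3 pairs did not overlap for 2 of 8 (21.3% of all). These counts describe the genes and were not tested. With arrays set to a common median in place of quantiles, the pairs did not overlap for 3 of 8.

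The spread itself was wide. The median range over the arrays was 5.26 log2 units for the 8 genes and 1.12 for all probe sets tested, and 7 of 8 ranged over more than 3 log2 units, as did 3.57% of all. With pair 2 left out the median range of the 8 genes was 2.17 (0.75 for all probe sets), and with pair 1 left out 3.34 (0.95 for all). In total RNA of a sample, fewer neutrophils, less message per neutrophil and message from other cells cannot be told apart.

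Mature and immature granule genes were compared as deviations of each gene from its own mean over the arrays, since levels of different probe sets are not comparable. Mature here means transcribed after the azurophil granule genes, so it takes in the specific granule genes, which are made in marrow precursors, as well as the genes of the circulating cell. The 7 such genes measured (S100a8, S100a9, Ngp, Camp, Ltf, Cxcr2 and Lcn2) deviated on average by 2.34 log2 units in WT replicate 1 and by 0.61 in RAG-/- replicate 1. They were at -1.63 and -2.49 in WT and RAG-/- replicates 2, and at 0.60 and 0.58 in WT and RAG-/- replicates 3. The immature genes Mpo and Elane averaged 1.11 and -0.09 in pair 1, -0.60 and -0.53 in pair 2, and 0.16 and -0.06 in pair 3. The mature mean thus spanned 4.82 log2 units and the immature mean 1.70, with the same array, WT replicate 1, at the top of both.

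Mature minus immature was positive on the 4 arrays of pairs 1 and 3, from 0.44 to 1.23, and negative on both arrays of pair 2, at -1.04 and -1.96. Both genotypes stood on each side. On every array this difference had the sign of the mature mean, which is the mean with the wider span. By description the mature genes differed by -0.87 and the immature by -0.45, RAG-/- minus WT, and mature minus immature by -0.42, below the SD of 1.35 between arrays of a group. Within pairs that last difference was -0.53, -0.93 and 0.20. By title the values were 0.28, 0.35 and -0.07. Within the immature genes, Mpo ranged over 3.11 log2 units and the dim Elane over 0.93.

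**Figure D2:**
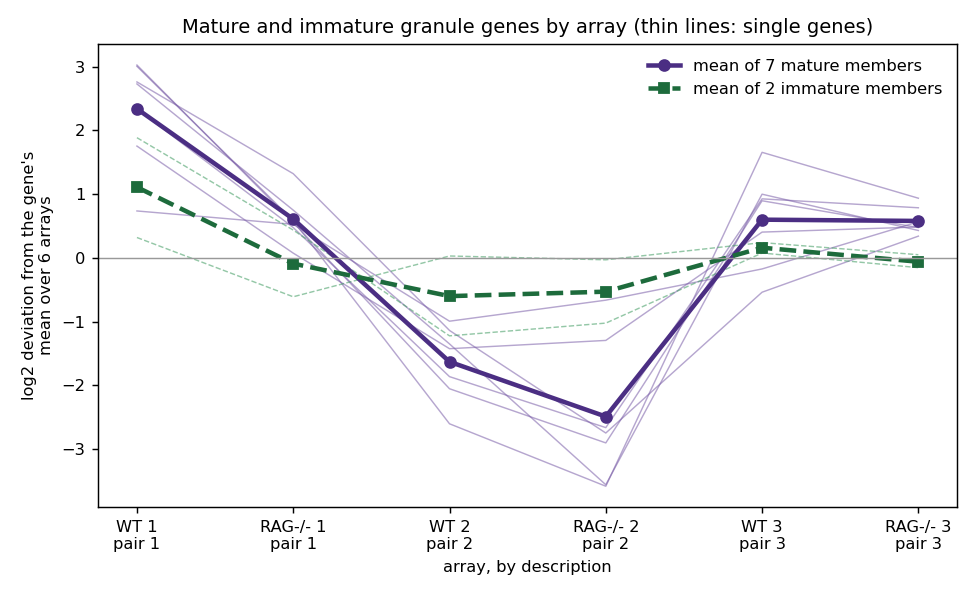
The vertical axis is the log2 deviation of a gene from its own mean over the 6 arrays, and the horizontal axis the arrays by description. Thick lines are the mean of the 7 mature and the 2 immature genes, thin lines single genes. The mature mean runs from 2.34 to -2.49 and the immature mean from 1.11 to -0.60.

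By description, all 8 genes past the filter were lower in RAG-/- than in WT arrays, with a median difference of -0.83 log2 units against -0.01 over all probe sets, but none passed the test. With limma, 0 of 8 had an adjusted p under 0.05 in either direction, as had 0% of all probe sets tested, and 0 of 8 had an unadjusted p under 0.05 (0.278% of all lower and 0.433% higher). S100a8 was at 9.52 ± 2.51 in RAG-/- and 10.89 ± 2.93 in WT (SD, n = 3), a difference of -1.38 (SE 1.58; limma adjusted p = 1). Camp differed most, by -1.59 (SE 1.30), from 9.01 ± 2.05 in WT to 7.42 ± 2.40 in RAG-/- (SD, n = 3). S100a9 differed by -1.25, Ngp by -0.93, Lcn2 by -0.72, Mpo by -0.50, Ltf by -0.48 and Elane by -0.40. For each of these genes the groups overlapped (over all probe sets, the 3 RAG-/- arrays were all below the WT arrays in 1.6% and all above in 1.84%), and the difference was smaller than the larger of the 2 group SDs, except in Elane, where it was 0.40 against an SD of 0.36. Cxcr2, below the filter and not tested, was higher in RAG-/- arrays, by 0.29 (SE 0.55). Without WT replicate 1, or without RAG-/- replicate 2, the number of genes lower fell from 8 to 4.

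Within pairs the sizes were uneven. S100a8 differed by -2.43, -0.97 and -0.72 in pairs 1, 2 and 3, S100a9 by -2.47, -0.85 and -0.42, Ngp by -1.85, -0.80 and -0.13, and Camp by -1.98, -2.22 and -0.57. These genes and Elane were lower in the RAG-/- array of each pair, 5 of 8, as were 11.5% of all probe sets tested. Ltf, by contrast, differed by -1.67, 0.13 and 0.08, Mpo by -1.46, 0.20 and -0.24, and Lcn2 by -1.44, -1.62 and 0.89. Cxcr2 differed by -0.20, 0.33 and 0.74. The lower means of Ltf and Mpo thus came from pair 1, the pair whose labels conflict.

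With the pair as a block in limma, S100a8 had a difference of -1.38 (SE 0.36), Camp of -1.59 (SE 0.37), S100a9 of -1.25 (SE 0.41) and Ngp of -0.93 (SE 0.34). Each of these 4 had an unadjusted p under 0.05, from 0.00425 to 0.0338, which was true of 1.37% of all probe sets in that direction and 0.984% in the other. After adjustment over all probe sets 0 of 8 passed (limma adjusted p = 1 for each).

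By title, the sign turned for 7 of the 8 genes. The median difference was 0.27 against -0.03 over all probe sets, with 7 higher and 1 lower in the arrays titled RAG. S100a8 differed by 0.24 (SE 1.65), S100a9 by 0.40, Ngp by 0.30, Lcn2 by 0.24, Ltf by 0.63, Mpo by 0.47, Elane by 0.23 and Camp by -0.27, none past the threshold (limma adjusted p = 1 for each; 0% of all probe sets in either direction). An unadjusted p under 0.05 was found for 0 of 8, against 0.773% of all probe sets higher and 0.455% lower, and with the block for 0 of 8, against 2.32% and 1.82%. With the block 0 of 8 passed after adjustment, as did 0.0037% of all probe sets, higher. The groups by title overlapped for all 8 genes, while 2.66% of all probe sets had the 3 arrays titled RAG all below and 2.12% all above. Of the 8, 1 gene, Ltf, was higher in the array titled RAG of each pair (10.6% of all), and 0 of 8 were lower in each (14.6% of all). The untested Cxcr2 was also higher in each, with a difference of 0.42 (SE 0.53). With array weights in limma the differences by title were larger, at 2.79 for S100a8, 2.75 for S100a9, 2.17 for Ngp, 2.10 for Camp and for Lcn2, 1.85 for Ltf, 1.75 for Mpo and 0.51 for Elane, and 0 of 8 passed. Pairs 2 and 3 carry the same genotype under both readings, and there S100a8, S100a9, Ngp, Camp and Elane were lower in both RAG-/- arrays, Ltf and Cxcr2 were higher in both, and Lcn2 and Mpo were split. In pair 1 the array with the highest normalized signal for all 9 measured genes is described as WT and titled RAG.

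**Figure D3:**
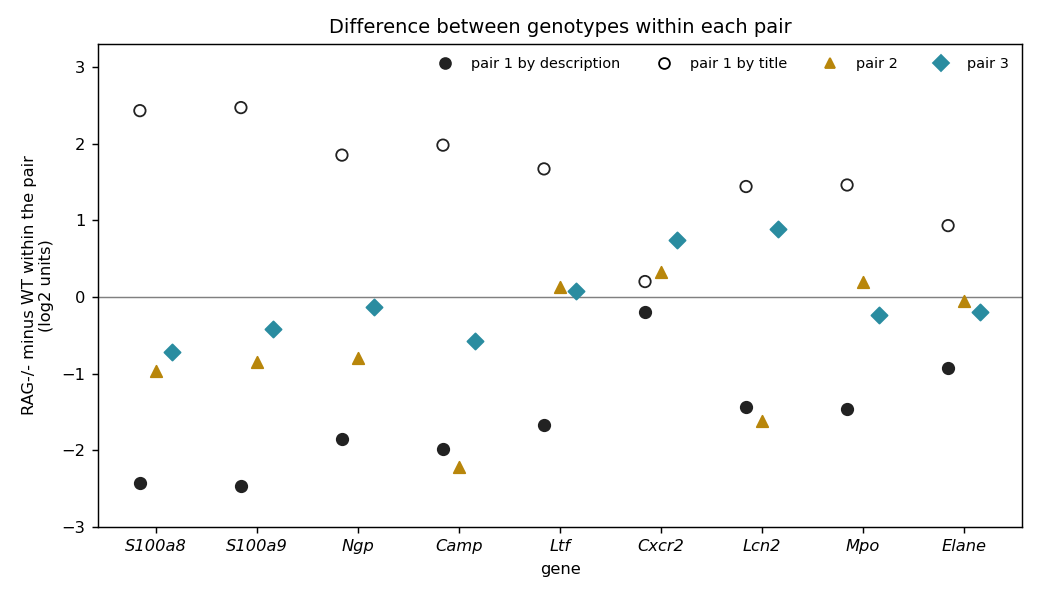
Each point is the difference RAG-/- minus WT within a pair, in log2 units on the vertical axis, for the gene on the horizontal axis. Filled circles, triangles and diamonds are pairs 1, 2 and 3 by description, and open circles pair 1 by title. Pair 1 lies below 0 for all 9 genes by description and above 0 by title.

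Other genes of the neutrophil programme were taken from lists, none with a member past the threshold by either reading, with or without the block. Of other azurophil granule and promyelocyte genes, 5 of 9 were measured past the filter. Prtn3, which encodes proteinase 3 and is the neighbour of Elane on chromosome 10, was at 8.27 and 7.55 in pair 1, 5.75 and 6.34 in pair 2, and 6.56 and 6.34 in pair 3 on the log2 scale, WT first. Ctsg, which encodes cathepsin G, was at 7.65 and 6.60, 4.40 and 5.86, and 6.85 and 6.90. Pair 2 was low for Ctsg, with a dim deposited intensity of 5.05 in WT replicate 2, and WT replicate 1 was highest for both, as it was for Mpo.

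Of 12 other specific and gelatinase granule genes, 11 were past the filter, 10 of them lower in RAG-/- arrays by description (median -0.57) and 5 by title (median 0.04). Chil3, which encodes a chitinase-like protein of neutrophil precursors and some macrophages, had a wider range than any of the 9 genes. It was at 11.56 and 9.36 in pair 1, 7.23 and 4.11 in pair 2, and 9.41 and 9.20 in pair 3. The range of Chil3 ends at a dim deposited intensity of 2.07, so its size depends on the background estimate. Hp, which encodes haptoglobin, ranged over 4.31 log2 units, and Lyz2, the lysozyme of neutrophils and macrophages, over 4.02. Hp was dim in pair 2, with deposited intensities of 8.95 and 4.30. Of 25 other genes of mature neutrophils, 11 were past the filter. Of these, 7 were lower and 4 higher in RAG-/- arrays by description (median -0.20), and 5 were lower by title (median 0.03). Over all 13537 genes tested, 6921 were lower by description and 7302 by title. Slfn4 ranged over 3.73, Wfdc21 over 3.44 and Il1b over 1.52 log2 units. Il1b was among those higher by description, by 0.59.

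Most named receptors, ligands and inhibitors had smaller ranges, with Ppbp the exception. Csf3r, the receptor for the growth factor that drives granulocyte output, had deposited intensities of 131 and 91.3 in pair 1, 31.7 and 38.9 in pair 2, and 86.8 and 46.9 in pair 3. Among the CXCR2 ligands, Cxcl1 stayed between 8.03 and 9.23 and was lowest in WT replicate 1, the array with the highest granule gene signal, while Cxcl2, Cxcl3, Cxcl5 and Cxcl15 were below the filter. Ppbp, a CXCR2 ligand of platelets, was at 8.04 to 8.47 in pairs 1 and 3 and at 4.24 and 4.42 in pair 2. Those pair 2 values were dim deposited intensities of 2.77 and 7.09. Tlr4, a receptor of calprotectin, ranged over 1.05 log2 units, and Slc22a17, a receptor of lipocalin-2, over 1.08 at the 99.1 percentile of brightness. Of the elastase inhibitors, Serpinb1a ranged over 1.18 and Slpi over 2.26, with its lowest array, WT replicate 2, at 5.61.

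The other S100 genes past the filter each had a smaller range than the calprotectin subunits, with S100a5 the nearest at 5.64 log2 units. The 8 other S100 genes past the filter had a mean deviation of 0.65 and 0.54 in pair 1, -0.44 and -0.15 in pair 2, and -0.32 and -0.28 in pair 3. The 0.54 in RAG-/- replicate 1 came mostly from S100a5, which was at 10.51 there and between 4.87 and 6.76 on the other arrays. S100a6 had a deposited intensity of 1024 in WT replicate 1 and 263 to 374 elsewhere, and S100a10 ranged over 2.09. Among other alarmins, Anxa1, which encodes the phospholipid-binding annexin A1, ranged over 3.36 log2 units, with deposited intensities of 4875 and 1124 in pair 1, 485 and 644 in pair 2, and 1585 and 1647 in pair 3, WT first. Its pair 2 arrays were lowest and WT replicate 1 was highest. Il33 ranged over 0.66 and Hmgb2 over 1.23 log2 units, against 6.59 for S100a8.

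Genes of other blood cells and of the stroma were also high or low on some of the same arrays. Monocyte genes (13 of 15 past the filter, among them Chil3 and S100a4, which other lists hold too) had mean deviations of 1.12 and 0.24, -0.60 and -0.95, and 0.28 and -0.09 in pairs 1, 2 and 3. Their summed intensity was 4702 to 16574 in WT and 3848 to 9416 in RAG-/- arrays by description, and 4702 to 10488 and 3848 to 16574 by title. That sum rests mostly on few of the 13 genes. Its largest terms in WT replicate 1 were Fn1 (6449), Chil3 (2970), Nr4a1 (1715) and Ace (1702). Ace alone was at 5465 in WT replicate 3, while Ccr2 was at 50.7 to 135 over all arrays. Macrophage and microglia genes (15 of 17) were at 1.10 and 0.73, -0.78 and -0.59, and -0.15 and -0.30, with sums of 4444 to 15121 in WT and 5991 to 12107 in RAG-/- by description, and 4444 to 12107 and 5991 to 15121 by title. The erythroid genes Alas2 and Slc4a1 were at 8.49 and 8.64, and 9.03 and 7.45, in pair 1, against 5.68 and 4.79, and 5.37 and 5.37, in pair 2. The globin genes Hba-a2 and Hbb-b2 were lower in WT replicate 1 (5.72 and 5.99) than in WT replicate 2 (6.11 and 6.37). They were higher in RAG-/- replicate 1 (6.60 and 6.64) than in RAG-/- replicate 2 (6.08 and 5.30). Erythroid genes as a list (12 of 25) stayed between -0.30 and 0.25, with sums of 6760 to 9436 in WT and 7285 to 10252 in RAG-/- under both readings. The largest terms of that sum in WT replicate 1 were Bpgm (3685) and Fech (2970). Megakaryocyte and platelet genes (6 of 11) were at 0.50 and 0.22, -0.87 and -0.80, and 0.44 and 0.51, with sums of 934 to 2511 in WT and 849 to 1925 in RAG-/- by description, and 934 to 1945 and 849 to 2511 by title. Genes of meninges and fibroblasts (10 of 10) were at 1.54 and 0.21, -0.08 and -1.81, and 0.30 and -0.17, with sums of 18098 to 38130 in WT and 5508 to 16405 in RAG-/- by description. Those ranges did not overlap, but by title they did, at 16405 to 22953 and 5508 to 38130. No marker past the filter in these lists was at 0 on any array. The deposited intensities hold no 0 for any probe set, with lowest values of 0.079 to 0.31 per array, so this does not show that a marker was detected. The part of these cells in the granule gene differences was not tested.

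Lists of dividing, progenitor and bone cells had smaller mean deviations than the mature granule genes. Cell division genes (20 of 28) were between -0.66 and 0.36, stem and progenitor genes (6 of 9) between -0.51 and 0.48 with pair 2 at 0.46 and 0.48, and bone and cartilage genes (5 of 15) between -0.59 and 0.42. Of the B cell genes, 9 of 20 were past the filter, and Vpreb3, a gene of B cell precursors, was between 4.84 and 7.27. Ighm ranged over 3.45 log2 units, with a deposited intensity of 2421 in RAG-/- replicate 2 and 218 to 918 elsewhere. The summed intensity of the B cell genes, which includes Ighm, was 3364 in that array and 1434 to 2719 elsewhere. Ighm alone made up 2421 of the 3364. The mean deviation of the 9 B cell genes was -0.06 in that array and between -0.41 and 0.50 on the others, so the list as a whole was not highest there. The cause of the high Ighm signal was not tested. Neuron genes went the other way in pair 2, at 0.46 and 1.44 there and -0.81 and -1.25 in pair 3.

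**Figure D4:**
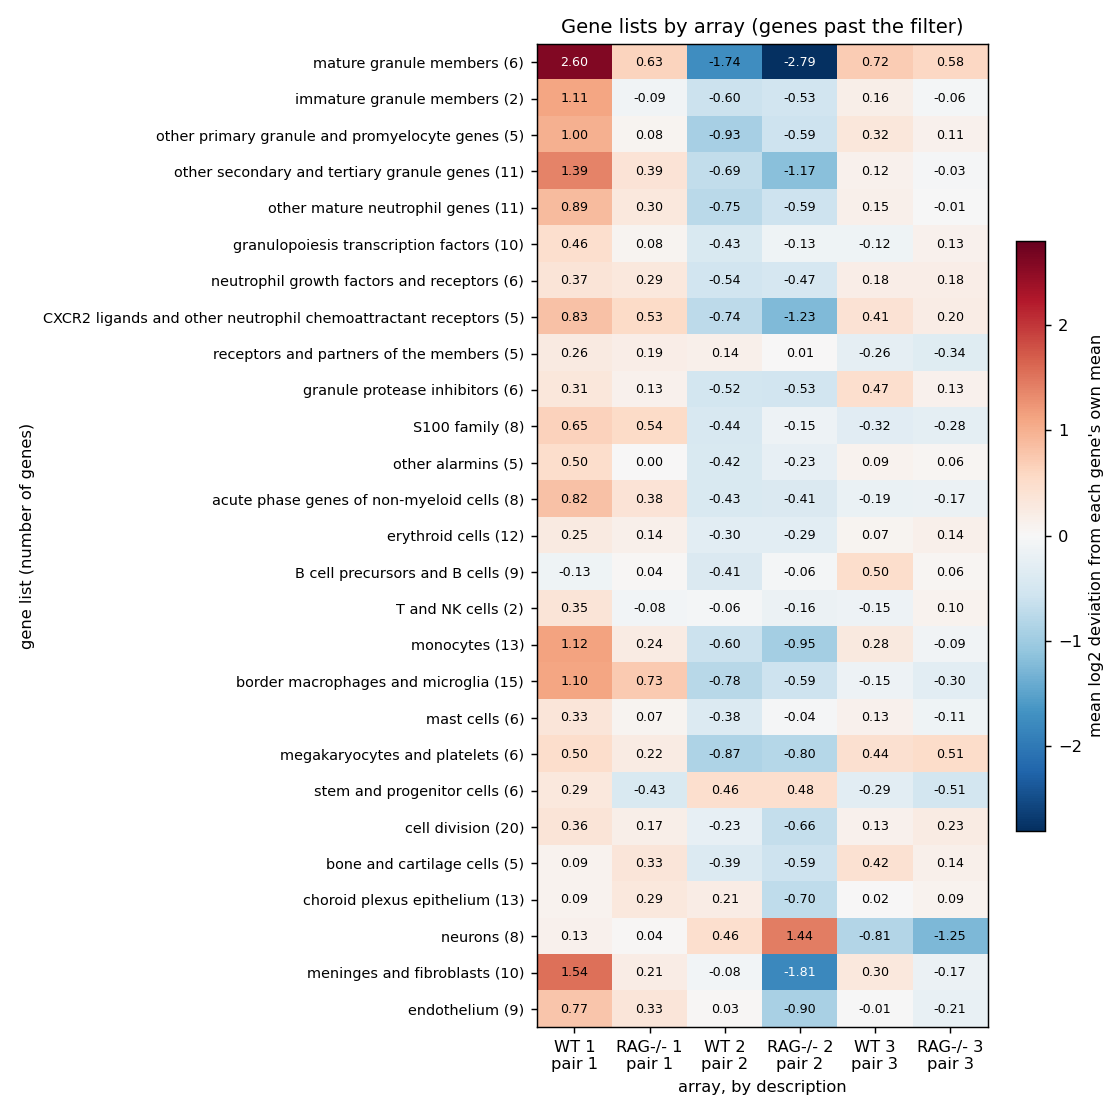
Rows are gene lists with the number of genes past the filter, columns the arrays by description, and colour and printed number the mean log2 deviation of the list's genes from their own means. The mature granule genes past the filter run from 2.60 in WT replicate 1 to -2.79 in RAG-/- replicate 2, the widest span of the lists shown.

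The genes whose profile was most like the mean of the 9 measured genes were ranked by Pearson's r over the 6 arrays, given as a description because arrays of a pair are not independent. The first 10 were Arpc2, Mmrn2, Fgl2, Hk3, Cytip, Pmel, Prdm6, Isg20, Ildr2 and Gda, with r between 0.987 and 0.997. Likeness of shape is not likeness of size. Arpc2, which encodes a subunit of the Arp2/3 actin complex, ranged over 0.52 log2 units, while Fgl2, a secreted fibrinogen-like protein, ranged over 4.64 and Hk3, a hexokinase of myeloid cells, over 3.01. For Lcn2 alone the first 10 were Ccnb2, Mafk, Cnn2, Ier2, Dct, Ccn3, Cp, Dpp4, Ddit4 and Uqcr10, with r between 0.976 and 0.995, and 0 of these were among the first 10 for the mean. Cp, which encodes the copper-carrying acute phase protein ceruloplasmin, was at 12.01 and 10.73 in pair 1, 9.69 and 8.95 in pair 2, and 10.35 and 10.45 in pair 3.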

How the data were processed

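Total RNA of 6 choroid plexus samples was measured on 1 single-colour oligonucleotide array each. The deposited table holds a linear intensity per probe set. The software behind them is not given in the sources used here. Every deposited array has the same trimmed mean of 500, as scaling by the authors to one target would give, though no source states that step. The lowest values show no common floor, so ratios of dim probe sets depend on the background estimate. Such data give no count depth, and the number of arrays limits the precision.

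Of 45101 probe sets, 64 controls were left out. Intensities were taken as log2(intensity + 16), which understates changes of dim genes, and quantile normalized, since their upper quartiles spanned 0.232 log2 units. The lowest 40% by mean were left out, leaving 27022 probe sets of 13537 named genes. The annotation gave 34945 probe sets 1 symbol, 932 several and 9160 none, and 34741 of the first matched the gene table of GRCm38.p6 by gene number. The brightest probe set stood for a gene.

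Differences, RAG-/- minus WT, were tested with limma 3.58.1 in R 4.3.3 (lmFit, eBayes with trend), two-sided, Benjamini-Hochberg adjusted over all probe sets, threshold 0.05, after a test on simulated data. Same-pair arrays correlated in their deviations from group means at 0.29, 0.39 and 0.58 by description and 0.36, 0.43 and 0.56 by title, so the code in the titles was taken to pair them, and fits with the pair as a block were made beside those without. Members and lists were chosen with earlier results of these data known. Named list genes were those with the smallest p (up to 4) or the widest range (up to 4) of a list, the 10 genes most like the members' mean or Lcn2 in profile, and Ttr. Groups of 3 arrays were too small for outlier tests.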

Additional observations from a re-analysis of the deposited data

How the results depend on the processing

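No member passed the threshold of limma in any alternative tried, by description or by title. Over all probe sets, the count of 0 by description was 0 to 4 without single arrays, and the 4 without RAG-/- replicate 2 were Xist and 3 unnamed probe sets. Xist differed by -4.78 there and the unnamed probe sets by 4.80 to 7.89. The labels do not state the sex, so a difference of sex between these arrays cannot be told apart from one of genotype. The count of 0 by title was 0 without each single array, 1 with the pair as a replicate block and 2 with array weights, all of them probe sets of Pttg1. Unadjusted p was under 0.05 for 192 probe sets by description and 332 by title, and with the block for 636 and 1118. The block changed no other call. These probe sets are no granule genes and were chosen after their values were seen.

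Of the 8 genes, 8 were lower by description under each scaling, pseudocount, filter and weighting tried and with the block, 7 without pair 1, and 1 by title, with 4 to 8 without single arrays. The cause of these changes was not tested. By description, Ltf turned to 0.11 without pair 1. By title in place of description, the differences were 0.24 for S100a8, 0.40 for S100a9, 0.30 for Ngp, 0.63 for Ltf, 0.24 for Lcn2, 0.47 for Mpo and 0.23 for Elane. By description in place of title, they were -1.38, -1.25, -0.93, -0.48, -0.72, -0.50 and -0.40 in that order. Without pair 1, where both readings coincide, they were -0.85 for S100a8, -0.64 for S100a9, -0.47 for Ngp, -0.37 for Lcn2, -0.02 for Mpo and -0.13 for Elane. Camp by title was 0.07 with a pseudocount of 64, and Lcn2 by title was -0.10 with a pseudocount of 1. Array weights moved all 8 differences by title, to between 0.51 (Elane) and 2.79 (S100a8), with Camp turned to 2.10.

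Without single arrays the differences by description ran from -3.02 to 0.07 for S100a8, -2.59 to -0.04 for S100a9, -2.09 to 0.17 for Ngp, -2.66 to -0.21 for Camp, -1.32 to 0.27 for Ltf, -1.57 to 0.48 for Lcn2, -1.23 to 0.32 for Mpo and -0.52 to -0.19 for Elane. By title they ran from -1.20 to 2.09, -1.02 to 1.95, -0.79 to 1.71, -1.70 to 1.45, -0.09 to 1.43, -1.09 to 1.67, -0.35 to 1.10 and -0.02 to 0.40. The median range of the 8 genes, 5.26, was 3.69 to 5.26 without single arrays, 3.34 without pair 1 and 2.17 without pair 2. These alternatives for counts and ranges were chosen after seeing the data. Mature minus immature stayed within the SD between arrays, in each alternative tried, and 2 genes had pairs that did not overlap, or 3 with a common median. Signal near the dim end limits the precision for Elane and Cxcr2, and for Camp and Lcn2 in RAG-/- replicate 2. Among the list genes the same holds for Chil3 in RAG-/- replicate 2, Ctsg in WT replicate 2, and Hp and Ppbp in pair 2. Lcn2 by description was -1.09 with a pseudocount of 1 and -0.47 with 64, and Elane -0.24 with 64 and -0.62 with array weights.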

Other observations

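Of the genes beside S100a8 and S100a9 in the same family, S100a5, known from olfactory sensory neurons, was bright on a single array. It was at 10.51 in RAG-/- replicate 1 and between 4.87 and 6.76 on the other 5 arrays, on the log2 scale. Its difference was 1.94 by description and -0.56 by title (limma adjusted p = 1 for both).

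Saa3, an acute phase gene induced in epithelium and macrophages, was higher in the RAG-/- array of each pair by description, with deposited intensities of 61.6 and 322 in pair 1, 50.6 and 130 in pair 2, and 58.9 and 70.8 in pair 3, WT first. Its log2 difference was 1.15 by description and -0.24 by title (limma adjusted p = 1 for both).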
